A study of Mus musculus with 4 samples.

Results

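The vacuolar proton ATPase (V-ATPase) was examined through 10 subunit genes, Atp6v0a1, Atp6v0b, Atp6v0c, Atp6v0d1, Atp6v1a, Atp6v1b2, Atp6v1c1, Atp6v1d, Atp6v1e1 and Atp6v1h. They were chosen by name as parts of one complex, and every probe set annotated to 1 of these symbols alone was taken. This gave 27 probe sets of 9 genes, among 18193 genes named on the arrays. No probe set carried Atp6v0c as its single symbol in the annotation used, so that gene was not analysed here.

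The V-ATPase is a rotary pump that acidifies endosomes, lysosomes and phagosomes. Its cytosolic V1 sector hydrolyses ATP, and its membrane-bound V0 sector moves protons into the lumen. In dendritic cells the acidity of these compartments sets how fast ingested antigen is degraded, and slow acidification is known to favour the presentation of ingested antigen on MHC class I. In the mouse spleen, cross-presentation to CD8 T cells is best known from the CD8α+ dendritic cells, which belong to the conventional type 1 lineage (cDC1). The CD8α− cells are mostly of the conventional type 2 lineage (cDC2), better known for priming CD4 T cells.

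The tested cells were CD8α+ dendritic cells of the spleen (2 arrays) and they were set against CD8α− dendritic cells of the spleen (2 arrays). Both came from C57BL/6 mice, with no treatment or altered gene named in the labels. The labels do not say that each array stands for its own animals, so the p-values reflect only how far these samples scattered, and part of that scatter may be technical. RNA of whole populations was measured on Affymetrix Mouse Genome 430 2.0 arrays. In such bulk RNA, fewer cells of a type and less RNA per cell cannot be told apart.

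The CD8α− arrays differed from each other more than the CD8α+ arrays did, and this bears on every comparison below. The log2 signals of tested probe sets correlated at r = 0.955 within the CD8α+ pair, at 0.835 within the CD8α− pair and at 0.788 to 0.871 across the groups, over probe sets, which are not independent. The ratio of 3′ to 5′ signal of the Gapdh controls was 1.53 to 2.02 on 3 arrays and 10.7 on CD8α− replicate 2. That of the Actb controls went the other way, at 1.62 to 1.69 on the same 3 arrays and 0.759 on CD8α− replicate 2, so the controls gave no single reading of RNA quality. Between the replicates, tested subunit probe sets differed by a median of 0.18 (log2) in CD8α+ cells and 0.80 in CD8α− cells, beside 0.22 and 0.68 for all tested probe sets. Cd8a read higher in CD8α+ cells on all 5 of its probe sets, which matches the labels. On 1425335_at it was at least 69.4-fold brighter (fitted 6.74 ± 0.42), with neither CD8α− array above background. This probe set, 1440164_x_at and 1451673_at were bright enough to be tested only through their CD8α+ arrays, so their direction adds no support. On 1440811_x_at, above background on all 4 arrays, the difference was 3.90 ± 0.30. Itgax, Flt3, Zbtb46, H2-Ab1, Cd74 and Kmo, genes that mark dendritic cells, exceeded background on all 4 arrays. None of their 10 tested probe sets had an unadjusted p under 0.05, where 7.75% of all tested probe sets were brighter and 7.8% dimmer. That does not show them to be level. Both CD8α+ arrays lay above both CD8α− arrays on 4 (40%) and below on 5 (50%), against 26.1% and 26.2% of all tested probe sets. Every difference below is quantile-normalized log2 signal, CD8α+ minus CD8α−, given ± its limma standard error (n = 2 arrays in each group).

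No common shift of the pump's subunits was seen between the populations. Of the 24 subunit probe sets bright enough to be tested, 12 were higher and 12 lower in CD8α+ cells, and their median difference of 0.05 lay beside 0.01 for all tested probe sets. Individual subunits went opposite ways: the B2 subunit (Atp6v1b2) read higher in CD8α+ cells on each of 4 probe sets, and the C1 subunit (Atp6v1c1) read lower on each of 3. Of the 4, 1419883_s_at and 1446465_at were bright enough to be tested only through their CD8α+ arrays, so their direction is no support. In the plot of differences by probe set Atp6v1b2 lies to the right and Atp6v1c1 to the left, but other subunits also spread widely. Atp6v0a1 1459924_at, at -1.52, lay further left than any Atp6v1c1 probe set. Atp6v1e1 1449711_at (1.35) and Atp6v1d 1416951_a_at (1.31) lay right of the brightest Atp6v1b2 probe set (0.55).

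With limma and Benjamini-Hochberg adjustment over all 22519 tested probe sets, 0 subunit probe sets passed 0.05, the lowest adjusted p being 0.192, and 0 probe sets of the whole array passed (0% in either direction). At an unadjusted p under 0.05, 4 of the 24 (16.7%) were brighter in CD8α+ cells, against 7.75% of all tested probe sets, and 2 (8.33%) were dimmer, against 7.8%. Of the 4, 3 read the same gene, Atp6v1b2, and both dimmer ones read Atp6v1c1, so the counts rest on few genes. Atp6v1b2 1419883_s_at and 1446465_at, which are 2 of the 4, averaged 20.3 and 19.5 normalized signal in CD8α− cells, under the filter of 22.97, and passed it only through the CD8α+ arrays. Such probe sets had to differ, and the count of 4 is no support for a difference of the family. Atp6v0a1 1459924_at passed only through the CD8α− arrays. In 7 of the 24 (29.2%) both CD8α+ arrays lay above both CD8α− arrays, and in 9 (37.5%) below, where all tested probe sets gave 26.1% and 26.2%.

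The counts moved with the arrays and the scale. Subunit probe sets brighter and dimmer numbered 0 and 0 without CD8α+ replicate 1, where all probe sets gave 1.6% and 3.63%, and 1 and 1 without CD8α+ replicate 2, beside 1.67% and 4.61%. They numbered 7 and 5 of 23 without CD8α− replicate 1, beside 24.5% and 19.5% of all probe sets. Without CD8α− replicate 2 they numbered 4 and 1, beside 17.6% and 11.6%. On leaving out either CD8α+ array or CD8α− replicate 1, the counts moved the same way as the shares of the whole array. Without CD8α− replicate 2 they did not: the brighter count stayed at 4 and the dimmer one fell from 2 to 1. The shares of the whole array there rose from 7.75% and 7.8%. With no normalization beyond the authors' they were 3 and 0, beside 10.3% and 2.02% of all probe sets, and with median centring 8 and 0, beside 26.7% and 3.8%. With trimmed mean scaling they were 2 and 2, beside 5.68% and 16.8%. Those scalings moved the median of all tested probe sets to 0.63, 0.65 and -0.21. The brightest probe set of each of the 9 genes gave a narrower picture: 7 differences were below 0 and 2 above, from -1.24 to 0.55, with 0 brighter and 1 dimmer at an unadjusted p under 0.05, beside 7.52% and 9.41% of all 10531 genes at 1 probe set each. The 3 subunit probe sets too dim to test, 1 each of Atp6v0a1, Atp6v1e1 and Atp6v1h, had deposited signals of 2.20 to 25.7 in CD8α+ cells, against 1.80 to 39.8 in CD8α− cells.

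**Figure D1:**
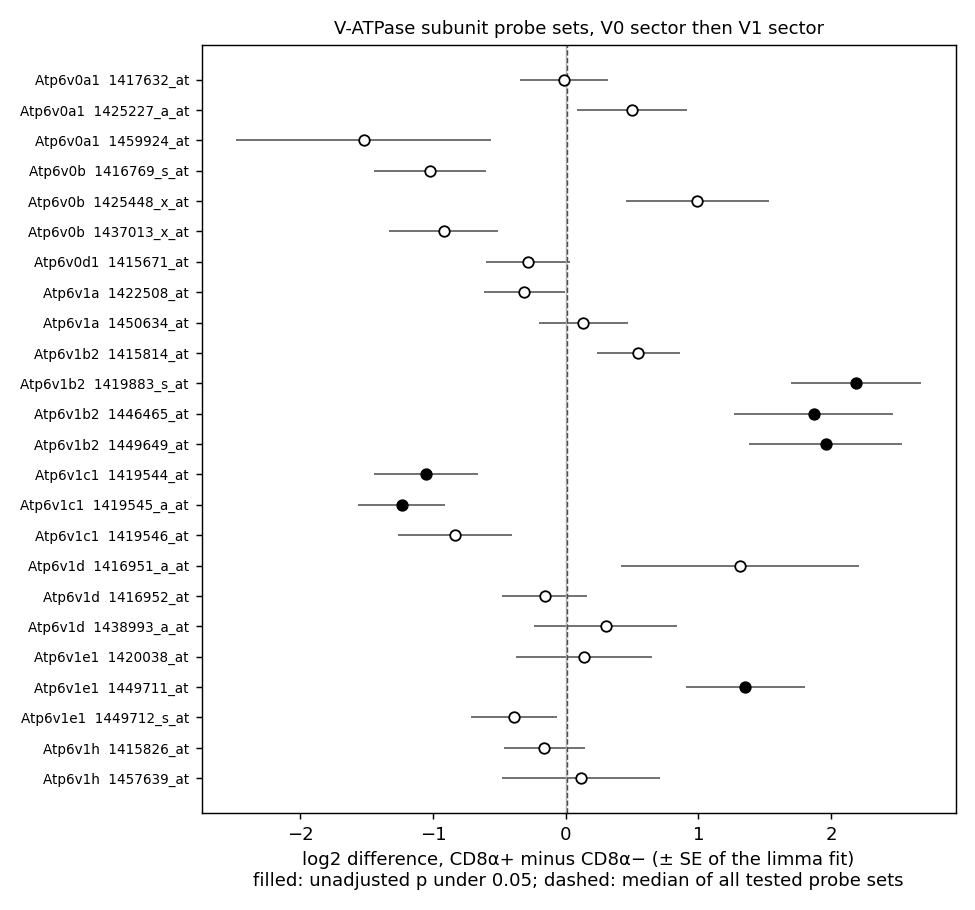
Difference in log2 signal, CD8α+ minus CD8α− cells, for each of the 24 tested V-ATPase subunit probe sets, with bars for limma's standard error (n = 2 arrays in each group). Filled points have an unadjusted p under 0.05: 3 of Atp6v1b2 and 1 of Atp6v1e1 on the right, 2 of Atp6v1c1 on the left. The dashed line is the median of all tested probe sets, 0.01.

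The catalytic head of V1 is built from A and B subunits in alternation, with ATP hydrolysed by the A subunits at the interface with B. The A subunit, Atp6v1a, differed little and in both directions. Its probe set 1422508_at had deposited signals of 501 and 547 in CD8α+ cells, against 475 and 223 in CD8α− cells, and a difference of -0.31 ± 0.30 after normalization. Its other probe set, 1450634_at, read 0.13 ± 0.34. The 95% intervals of the fit, -1.12 to 0.50 and -0.76 to 1.02, span 0.

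Atp6v1b2 encodes the B isoform found in most tissues, whereas Atp6v1b1 serves acid-secreting cells such as those of the kidney and inner ear. Every Atp6v1b2 probe set was higher in both CD8α+ arrays than in both CD8α− arrays. On 1415814_at, the brightest, deposited signals were 347 and 328.1 in CD8α+ cells, against 188 and 77.1 in CD8α− cells. Its difference was 0.55 ± 0.31, a fold of 1.46, with a limma adjusted p of 0.448. The remaining Atp6v1b2 probe sets differed more.

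Probe set 1449649_at had deposited signals of 254 and 255 in CD8α+ cells, against 89.9 and 19.9 in CD8α− cells, with a difference of 1.96 ± 0.58 and a limma adjusted p of 0.258. On 1419883_s_at the deposited signals were 132 and 90.6 in CD8α+ cells, against 38.5 and 8.70 in CD8α− cells. There neither CD8α− array exceeded the background set by Bacillus controls, and the CD8α+ signal was at least 2.78-fold brighter (fitted 2.19 ± 0.49, limma adjusted p = 0.192). Since it passed the filter only through its CD8α+ arrays, this is a value and not further support for the Atp6v1b2 difference. Probe set 1446465_at read 87.9 and 62.1 in CD8α+ cells, against 40.1 and 6.40 in CD8α− cells, with a difference of 1.87 ± 0.60. It too passed the filter only through its CD8α+ arrays. On these 3 probe sets CD8α− replicate 2 was within background throughout, and CD8α− replicate 1 exceeded it on 1449649_at and 1446465_at.

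The size of the Atp6v1b2 difference depended on CD8α− replicate 2, its direction did not. For 1419883_s_at and 1446465_at the direction is no support, as they passed the filter only through their CD8α+ arrays. Without CD8α− replicate 2 the 4 probe sets differed by 0.48, 1.78, 1.21 and 1.29, in the order 1415814_at, 1419883_s_at, 1446465_at and 1449649_at. Without CD8α− replicate 1 they differed by 0.63, 2.82, 2.70 and 2.82, and the last 3 then had limma adjusted p-values of 0.0460, 0.0440 and 0.0401, from a fit in which the lone CD8α− array is assumed to vary like the CD8α+ pair. In that fit 3528 of the 22519 probe sets of the whole array passed an adjusted p of 0.05, against 0 with all 4 arrays, so passing it there does not set Atp6v1b2 apart. The part of that array's quality in these values was not tested.

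**Figure D2:**
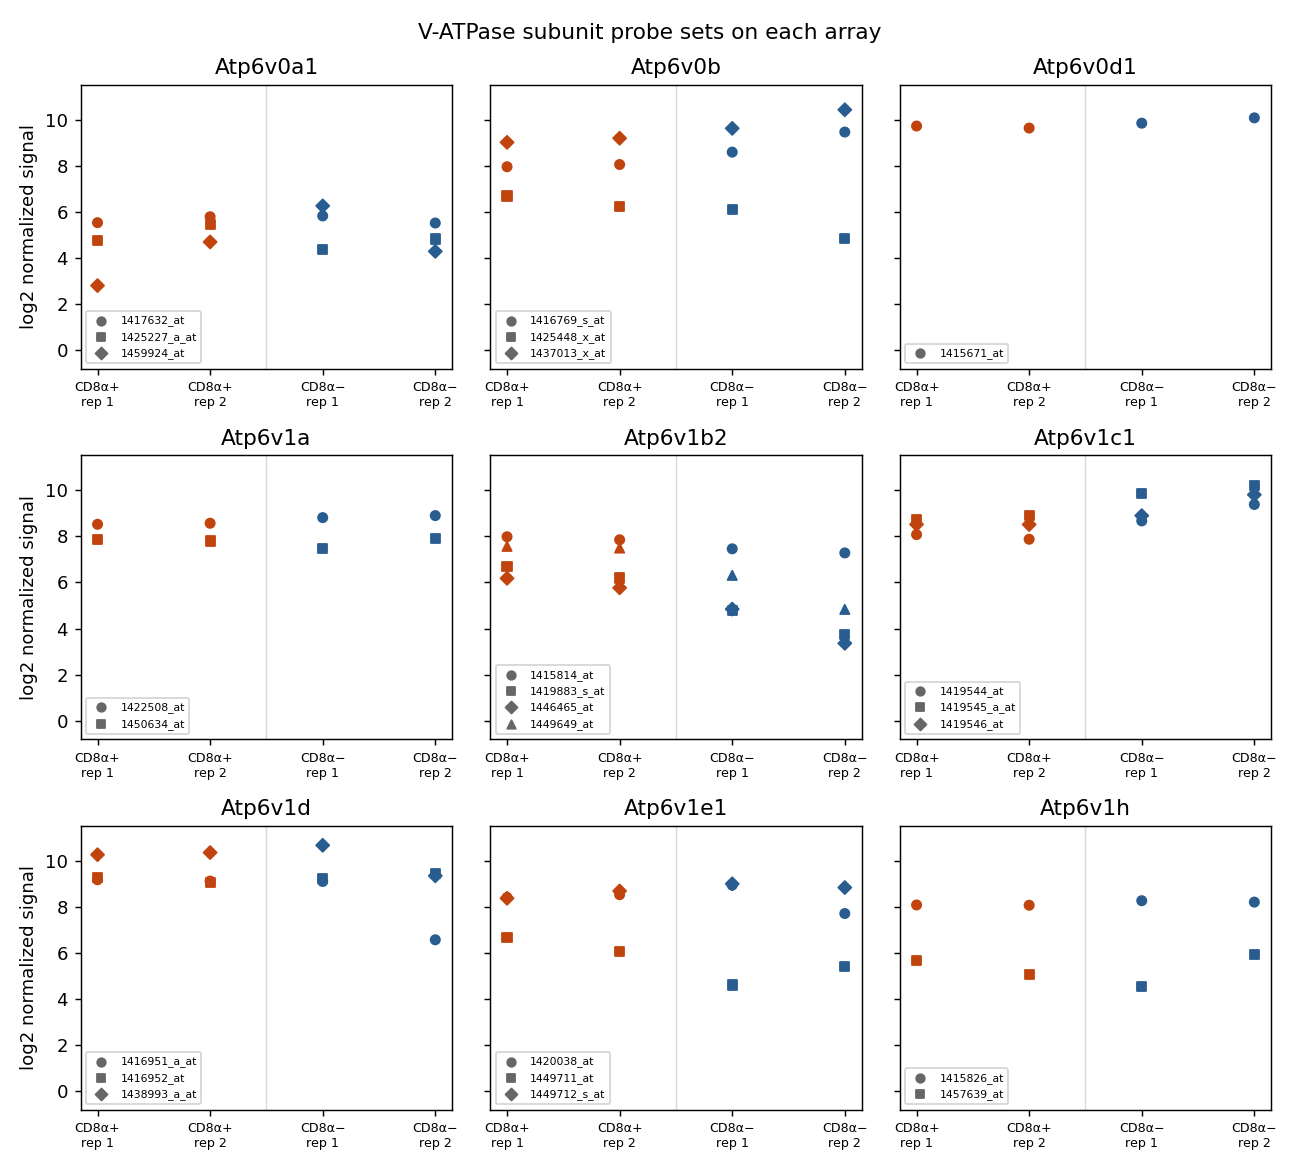
Quantile-normalized log2 signal of each tested probe set of the 9 measured V-ATPase genes on each array, with CD8α+ arrays to the left of the line and CD8α− arrays to the right, and 1 marker shape per probe set. The 4 Atp6v1b2 probe sets lie higher on both CD8α+ arrays and the 3 Atp6v1c1 probe sets lower, while probe sets of Atp6v1d and Atp6v1e1 part from each other on CD8α− replicate 2.

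The C subunit clamps the peripheral stalks to the V0 sector and is released when V1 and V0 come apart, a reversible step that turns the pump off. Atp6v1c1 encodes its widely expressed isoform. After normalization all 3 of its probe sets were lower in both CD8α+ arrays than in both CD8α− arrays. On 1419545_a_at normalized log2 signals were 8.71 and 8.89 in CD8α+ cells, against 9.86 and 10.21 in CD8α− cells, a difference of -1.24 ± 0.33 with a limma adjusted p of 0.234. Probe set 1419544_at differed by -1.05 ± 0.39 and 1419546_at by -0.84 ± 0.43, with limma adjusted p-values of 0.319 and 0.412.

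The deposited signals of Atp6v1c1 show how far that result rests on matching the arrays. On 1419545_a_at they were 580 and 691 in CD8α+ cells, against 1002 and 586 in CD8α− cells, so the groups overlapped before normalization. On the deposited scale the 3 probe sets differed by -0.28, -0.06 and 0.15, in the order 1419545_a_at, 1419544_at and 1419546_at, while the median of all tested probe sets stood at 0.63. Relative to that median they were lower by every scaling run.

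Set against each other on the same array, Atp6v1b2 and Atp6v1c1 differed between the populations whatever linear scale was used, since a factor common to an array cancels in the ratio. For each of the 12 pairs of an Atp6v1b2 with an Atp6v1c1 probe set, the log2 ratio of deposited signals was higher on both CD8α+ arrays than on both CD8α− arrays. For the pair of brightest probe sets, 1415814_at over 1419545_a_at, it was -0.74 and -1.07 in CD8α+ cells, against -2.41 and -2.93 in CD8α− cells, a difference of 1.76. Over the 12 pairs the difference ran from 1.34 to 2.86, with a median of 2.43.

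This ratio was picked after the values of both genes were seen, the 12 pairs share 7 probe sets and 4 arrays, and an exact permutation of 2 arrays against 2 cannot give a two-sided p below 0.333. Pairs with Atp6v1b2 1419883_s_at or 1446465_at add no support, since these passed the filter only through the CD8α+ arrays. The pairs of 1415814_at and 1449649_at alone spanned the same 1.34 to 2.86. Ratios of this kind separated often: those of Atp6v1b2 probe sets to all other tested probe sets did so in 77.1% of 90072 pairs, and those of all other tested probe sets to Atp6v1c1 probe sets in 55.1% of 67554. Of the 14 alternatives, 8 recompute the differences (scaling, the offset, and leaving out an array). Less the median probe set of each setting, which itself takes out most of a change of scale, the Atp6v1b2 values over these and the reported setting ran from 0.46 to 2.88, and the Atp6v1c1 values from -1.36 to -0.40. The values of 1415814_at and 1449649_at alone also ran from 0.46 to 2.88.

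**Figure D3:**
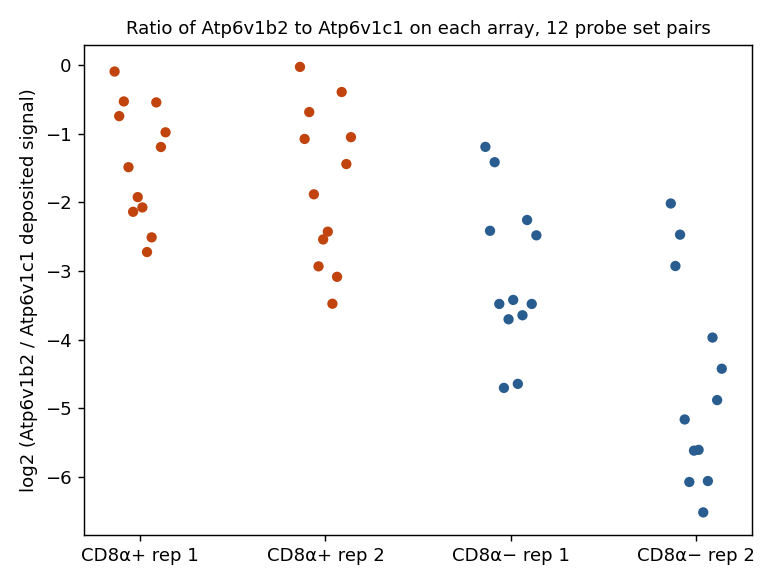
Log2 ratio of Atp6v1b2 to Atp6v1c1 deposited signal on each array, 1 point for each of 12 probe set pairs, with points spread sideways for legibility. For every pair both CD8α+ arrays lie above both CD8α− arrays; the height of a point within an array depends on the probe sets and compares no levels.

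**Figure D4:**
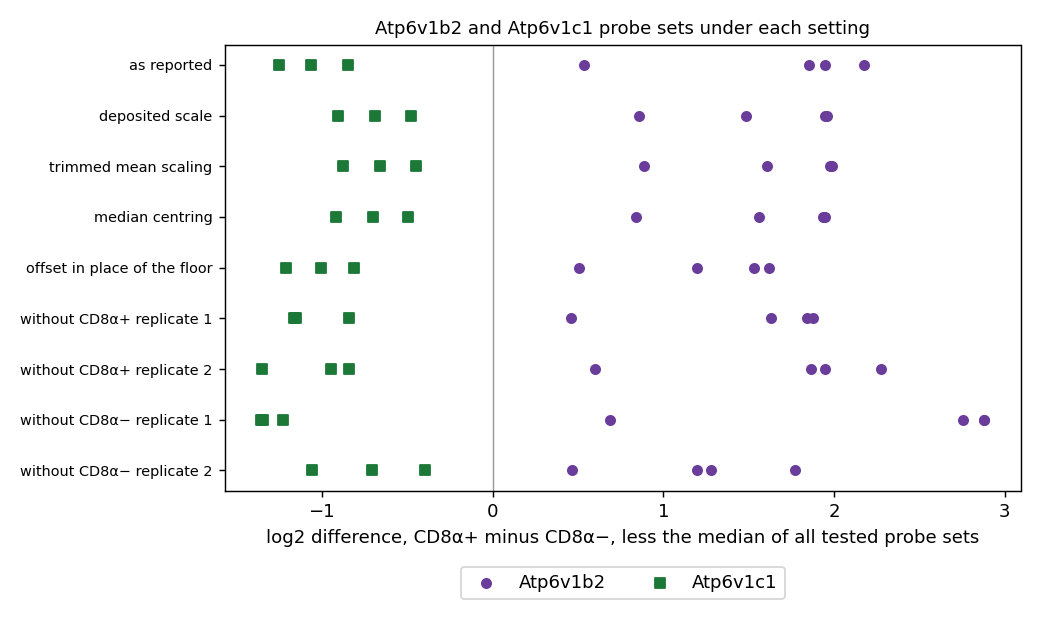
Differences of the Atp6v1b2 probe sets (circles) and Atp6v1c1 probe sets (squares) under the reported setting and the 8 alternatives that recompute the differences, each less the median difference of all tested probe sets under that setting. The Atp6v1b2 values lie from 0.46 to 2.88 and the Atp6v1c1 values from -1.36 to -0.40, and the settings share the same arrays.

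The other V1 stalk subunits gave no common direction, and their probe sets disagreed within genes. The D subunit, part of the central rotor, is encoded by Atp6v1d. Its probe set 1416951_a_at had deposited signals of 804 and 801 in CD8α+ cells, against 578 and 51.2 in CD8α− cells, and a difference of 1.31 ± 0.90. On 1416952_at the signals were 863 and 773 in CD8α+ cells, against 627 and 327 in CD8α− cells, and the difference was -0.16 ± 0.32. After normalization 1416951_a_at stood at 9.17 and 9.11 in CD8α+ cells, against 9.09 and 6.57 in CD8α− cells, so CD8α− replicate 2 alone carried the gap. Probe set 1438993_a_at, the brightest, read 0.30 ± 0.54.

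The E subunit, one of the peripheral stalk proteins, is encoded by Atp6v1e1. Of its 4 probe sets 3 were tested, with 1449711_at at 1.35 ± 0.45, 1420038_at at 0.14 ± 0.51 and 1449712_s_at at -0.39 ± 0.33. The first had deposited signals of 128 and 81.8 in CD8α+ cells, against 34.7 and 27.7 in CD8α− cells, a separation of the groups that the other, brighter probe sets did not show in that direction. On it only 1 of the CD8α− arrays exceeded background. The H subunit, which holds the free V1 sector inactive, is encoded by Atp6v1h. Its probe set 1415826_at differed by -0.16 ± 0.30 (95% interval -0.97 to 0.65) and 1457639_at by 0.12 ± 0.59.

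In the V0 sector, 0 of 7 tested probe sets had an unadjusted p under 0.05. Of all tested probe sets 7.75% were brighter and 7.8% dimmer, so 0 of 7 is near those shares and does not set V0 apart. The d subunit couples the rotor of V1 to the proteolipid ring. On Atp6v0d1 (1415671_at) deposited signals were 1148 and 1131 in CD8α+ cells, against 990.2 and 530 in CD8α− cells, and after normalization the difference was -0.28 ± 0.31. Atp6v0b encodes the c″ proteolipid, one of the ring proteins that carry protons through the membrane. After normalization its probe sets 1416769_s_at and 1437013_x_at were lower in both CD8α+ arrays, by -1.02 ± 0.42 and -0.92 ± 0.41, with limma adjusted p-values of 0.350 and 0.370. Their deposited signals overlapped between the groups. On the deposited scale they differed by -0.037 and 0.025, while the median of all tested probe sets stood at 0.63. The other, 1425448_x_at, ran the other way at 0.99 ± 0.54, with deposited signals of 132 and 94.8 in CD8α+ cells, against 80.1 and 20.2 in CD8α− cells.

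The a subunit forms the path by which protons enter and leave the ring and carries the targeting signals that place the pump, and Atp6v0a1 encodes one of its isoforms. Of 4 Atp6v0a1 probe sets, 3 were tested, at -0.01 ± 0.33, 0.50 ± 0.42 and -1.52 ± 0.96, and all 3 overlapped between the groups. Only 1417632_at was above background on all 4 arrays, with deposited signals of 52.3 and 63.4 in CD8α+ cells, against 68.9 and 29.3 in CD8α− cells. Of the 8 genes with more than 1 tested probe set, Atp6v1b2 and Atp6v1c1 were the 2 whose probe sets all pointed one way, and 6 split. Among the other subunits described below, Atp6v0a2 (0.99 to 1.30) and Atp6v1g1 (-1.01 to -0.01) also pointed one way, on 3 probe sets each, and Atp6ap2 split. Agreement of probe sets thus does not set Atp6v1b2 and Atp6v1c1 apart.

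Genes of the V-ATPase are known targets of TFEB and its relatives TFE3 and MITF, factors that bind the E-box CACGTG within a longer element called CLEAR. Promoter windows of RefSeq (GRCm38.p6, from 250 bases before to 50 after the start) were found for 7 of the 10 genes. Atp6v1b2, Atp6v1c1 and Atp6v1h had no window, so whether they hold the motif was not examined. The 7 with a window include Atp6v0c, which had no probe set. The 7-letter motif TCACGTG, on either strand, which contains the E-box CACGTG, occurred in 3 of these 7 genes, in 1 of 12 genes of the other subunits and accessory proteins (8.33%) and in 4.29% of all 27025 genes with a window (3.77% of 32851 windows). CACGTG alone occurred in the same 3 genes, in 1 of those 12 and in 8.09% of all genes. The stretches around the sites are shown 5′ to 3′ on the gene's strand, the minus strand for all 3, with the motif in capitals. They are Atp6v0b at chr4:117887330-117887399, Atp6v0d1 at chr8:105566061-105566124 and Atp6v1a at chr16:44139360-44139419.
Atp6v0b: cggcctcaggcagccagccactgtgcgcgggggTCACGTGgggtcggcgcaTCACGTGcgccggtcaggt
Atp6v0d1: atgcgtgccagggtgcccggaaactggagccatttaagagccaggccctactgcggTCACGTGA
Atp6v1a: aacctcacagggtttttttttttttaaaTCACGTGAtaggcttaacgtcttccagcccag

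Atp6v0b held 2 copies, beginning 37 and 19 bases before the start. In Atp6v0d1 and Atp6v1a the motif ran on both strands at once, so that the capitals span its 8-letter palindrome, which begins 4 bases before the start in Atp6v0d1 and 132 before it in Atp6v1a. A match is a description of these letters and not a bound site. The brightest probe sets of these 3 genes differed by -0.92, -0.28 and -0.31 between the populations, and 7 of the 9 measured genes were below 0 on theirs. Other probe sets of Atp6v0b read -1.02 and 0.99, and that of Atp6v1a read 0.13. A link of these differences to the motif was not tested. Of the MiT/TFE factors themselves, Mitf was higher in CD8α+ cells on 1455214_at, with deposited signals of 470 and 569 in CD8α+ cells, against 118 and 61.3 in CD8α− cells. Its difference was 1.71 ± 0.32 (unadjusted p = 0.00398, limma adjusted p = 0.154). Another Mitf probe set, 1422025_at, read 0.73 ± 0.45, with neither CD8α− array above background, and was at least 1.53-fold brighter. Tfe3 (0.94 ± 0.93) and Tfeb (0.92 ± 1.16) had wide errors, and Tfec was too dim to test.

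The remaining subunits and accessory proteins of the pump also went in both directions. Of 16 such genes 14 had a probe set and 7 were tested, on 13 probe sets, of which 1 was brighter and 1 dimmer in CD8α+ cells at an unadjusted p under 0.05, with a median difference of -0.05. Those counts, 7.69% each, were near the 7.75% and 7.8% of all tested probe sets. Atp6v0a2, an a isoform of the Golgi and endosomes, was higher in both CD8α+ arrays on each of 3 probe sets. On 1434791_at its deposited signals were 156 and 135 in CD8α+ cells, against 84.9 and 19.3 in CD8α− cells. The differences were 1.30 ± 0.57 there, 1.25 ± 0.46 on 1424513_at (limma adjusted p = 0.318) and 0.99 ± 0.61 on 1449870_a_at. On each of these 3 only 1 CD8α− array exceeded background.

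Tcirg1, which encodes the a3 isoform of lysosomes and of the osteoclast border, was level at -0.05 ± 0.30. The small membrane subunit Atp6v0e differed by -0.11 ± 0.36. Atp6v1f, a rotor subunit, read -0.69 ± 0.38. Atp6v1g1, of the peripheral stalk, read -1.01 ± 0.33 on its dimmest probe set, 1450926_at (limma adjusted p = 0.281), -0.68 ± 0.35 on 1423255_at and -0.01 ± 0.32 on the brightest, 1423256_a_at. The accessory protein Atp6ap1 read -0.73 ± 0.42. Atp6ap2, the prorenin receptor, split into 1.09 ± 0.59, 0.66 ± 0.51 and -0.25 ± 0.37. The tissue-restricted Atp6v0a4, Atp6v0d2, Atp6v0e2, Atp6v1b1, Atp6v1c2, Atp6v1e2 and Atp6v1g2 were below the filter on dim probe sets.

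**Figure D5:**
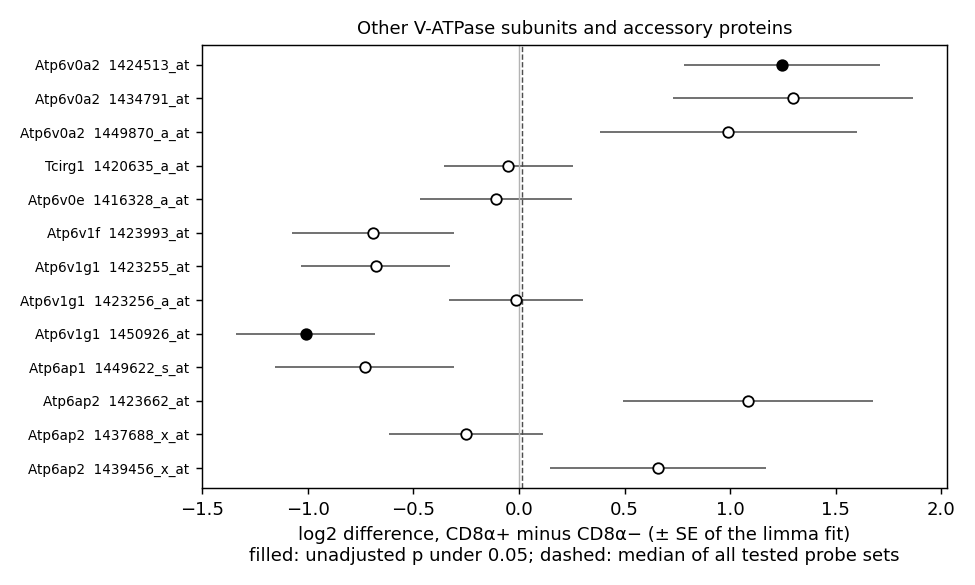
Difference in log2 signal, CD8α+ minus CD8α− cells, for 13 tested probe sets of other V-ATPase subunits and accessory proteins, with bars for limma's standard error (n = 2 arrays in each group) and filled points for an unadjusted p under 0.05. The 3 Atp6v0a2 probe sets lie to the right, from 0.99 to 1.30, and the dimmest Atp6v1g1 probe set to the left at -1.01.

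Genes that assemble or regulate the pump gave 2 brighter (10%) and 1 dimmer (5%) of 20 tested probe sets at an unadjusted p under 0.05, with a median of 0.39. Of all tested probe sets, 7.75% were brighter and 7.8% dimmer. Ncoa7, a TLDc domain protein that interacts with the V-ATPase, had the smallest p among the 20. Its probe set 1454809_at had deposited signals of 4299 and 4894 in CD8α+ cells, against 615 and 440.1 in CD8α− cells. The difference was 2.33 ± 0.38, a fold of 5.01 (unadjusted p = 0.00243, limma adjusted p = 0.139), and both CD8α+ values lay above both CD8α− values. Another Ncoa7 probe set, 1441540_at, read 1.62 ± 1.05. Vma21, a chaperone of V0 assembly in the endoplasmic reticulum, read 1.59 ± 0.34 on 1434233_at, which had the smallest p of its 4 probe sets. The others read 0.82 ± 0.40 on the brightest, 1452607_at, 0.60 ± 0.74 and 0.46 ± 0.40, and the last 2 overlapped between the groups. Dmxl2, of the RAVE-like complex that joins V1 to V0, read -1.59 ± 0.41.

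Of 33 tested probe sets of lysosomal and endosomal channels and transporters, 2 were brighter and 2 dimmer in CD8α+ cells at that level, with a median of 0.20. Those counts, 6.06% each, were near the 7.75% and 7.8% of all tested probe sets. Both brighter ones read Slc9a9, the endosomal sodium/proton exchanger NHE9, which lets protons out of endosomes. On 1433719_at its deposited signals were 653 and 761 in CD8α+ cells, against 144 and 55.3 in CD8α− cells, a difference of 2.08 ± 0.33 and a fold of 4.22 (limma adjusted p = 0.137). On 1437488_at it was at least 2.92-fold brighter, with both CD8α− arrays within background. This probe set averaged under the filter of 22.97 in CD8α− cells and passed it only through its CD8α+ arrays. The remaining tested Slc9a9 probe set, 1447149_at, read 1.14 ± 0.96 and overlapped between the groups. The voltage-gated proton channel Hvcn1 was lower at -1.76 ± 0.44, with 1 of the CD8α+ arrays above background. The channel Mcoln3 was at least 1.36-fold lower (fitted -1.15 ± 0.34), with neither CD8α+ array above background. Its probe set passed the filter only through the CD8α− arrays. Mcoln3 and Slc9a9 1437488_at thus had to differ, and the counts of 2 and 2 are no support for a difference of these genes. Ragulator and Rag GTPase genes, which tie the pump to mTORC1 at the lysosome, had 2 of 18 probe sets (11.1%) brighter and 0 dimmer, near the 7.75% and 7.8% of all tested probe sets, and a median of 0.47. The 2 were Fnip2 (1.32 ± 0.36) and Rraga (0.93 ± 0.33).

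Markers of 6 other cell types that a dendritic cell preparation can hold summed lower on both CD8α+ arrays, and those of T cells did not separate (533 and 730.2 in CD8α+ cells, against 583 and 684 in CD8α− cells). The summed normalized signal of 12 macrophage and monocyte markers was 4185 and 4291 in CD8α+ cells, against 6853 and 9411 in CD8α− cells, with 1 gene brighter and 4 dimmer at an unadjusted p under 0.05 of 8 tested, and C1qc above background on no array. For 7 neutrophil markers the sums were 6969.8 and 7617 in CD8α+ cells, against 14507 and 11819 in CD8α− cells, and 4 of 6 tested genes were dimmer. For 8 natural killer cell markers they were 740.1 and 926 in CD8α+ cells, against 3904 and 2276 in CD8α− cells, and 5 of 8 tested genes were dimmer. For 8 plasmacytoid dendritic cell markers they were 1064 and 1221 in CD8α+ cells, against 1784 and 2563 in CD8α− cells, and 2 of 7 tested genes were dimmer. Of all tested probe sets, 7.75% were brighter and 7.8% dimmer at that level. Erythroid markers summed to 169 and 138 in CD8α+ cells, against 202 and 314 in CD8α− cells, with Hba-a1, Alas2 and Klf1 above background on no array. At most 2 of these 5 genes exceeded background on an array, and 0 of 2 tested were brighter or dimmer, so this sum is mostly background. B cell markers summed to 266 and 306 in CD8α+ cells, against 319.5 and 411 in CD8α− cells, with Pax5 and Fcer2a above background on no array. Of 4 B cell genes tested, 1 was brighter and 1 dimmer. The part of these cells in the subunit differences was not tested.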

How the data were processed

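The deposited values are linear intensity, a signal for each probe set on each array, made with MAS5 per the submitters' processing notes. The series' design text names Microarray Suite 5.0 and GeneSpring. No target of the scaling is stated in these sources, and detection calls were not used here. The sources differ on RNA preparation (purified mRNA with Ovation labelling, or total RNA by Trizol with cRNA labelling), and which was used is not settled. Deposited signals had 2% trimmed means of 124 and 127 in CD8α+ cells, against 106 and 48.7 in CD8α− cells.

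Of 45101 probe sets, 64 controls were left out. The other 45037 were quantile normalized on the log2 scale, raised to a floor of 6.99 (mean 25th percentile), and tested where their mean signal reached the median, 22.97. Symbols came from the platform annotation: 34945 probe sets had 1, 932 several and 9160 none. Background was the highest of 27 Bacillus controls per array, and a fold against arrays all within it is given as "at least", against the higher of background and own signal. Only the number of arrays sets the precision. Groups follow the titles in the labels and were compared by two-sided limma tests (version 3.58.1, R 4.3.3, lmFit then eBayes with no trend, 2 residual and 2.48 prior degrees of freedom, Benjamini-Hochberg over all tested probe sets), checked on simulated arrays. Promoters were read with Python 3.11.15 and figures drawn with matplotlib 3.10.9.

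Alternatives covered scaling, filter, floor, spread model, choice of probe sets, each array left out and the replicate number as a block. The members and lists were chosen with earlier results of these data known. All probe sets of the listed subunits are reported. From other lists the text names probe sets with an unadjusted p under 0.05, at most 3 per direction by smallest p, and every tested gene among the other V-ATPase subunits. Further values named beside these, such as Tfe3 and a second probe set of a gene, were chosen after they were seen. Lists of cDC1, cDC2, T cell, B cell, plasmacytoid and erythroid markers had 8, 0, 0, 1, 0 and 0 genes brighter and 0, 5, 1, 1, 2 and 0 dimmer in CD8α+ cells at that level. The genes tested numbered 9, 8, 6, 4, 7 and 2 in turn, each counted on its brightest probe set. With 1 probe set per gene, 7.52% of all tested genes were brighter and 9.41% dimmer.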

Additional observations from a re-analysis of the deposited data

How the results depend on the processing

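With all 4 arrays no subunit probe set passed adjustment, under the reported setting or any alternative, and the counts below are at an unadjusted p under 0.05 unless stated. Subunit probe sets brighter in CD8α+ cells, 4 as reported, numbered 2 with trimmed mean scaling, 8 with median centring, 2 with no filter, 1 with the stricter filter and 0 with 1 probe set per gene. Of all probe sets, 7.75% as reported, 5.68%, 26.7%, 7.23%, 8.96% and 7.52% were brighter under these settings in turn. Dimmer ones, 2 as reported, numbered 0 on the deposited scale and with median centring, 1 with no filter and with 1 probe set per gene, 4 with an intensity trend and 1 with a replicate block. Of all probe sets, 7.8% as reported, 2.02% and 3.8%, 7.33% and 9.41%, 8.02% and 7.46% were dimmer under these settings in turn. The median difference, 0.05 as reported, was 0.75 on the deposited scale and with median centring, -0.22 with the stricter filter and -0.28 with 1 probe set per gene. Probe sets of the other subunits, 2 as reported, numbered 0 on the deposited scale, with the stricter filter and with 1 probe set per gene, 1 with trimmed mean scaling and 4 with median centring. Probe sets of the whole array past an adjusted p of 0.05, 0 as reported, numbered 406 with median centring, 37 with the stricter filter, 60 with an intensity trend and 16 with a replicate block. The arrays share a replicate number but no pairing was found (r = 0.031 between the groups' replicate differences, over tested probe sets).

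Leaving out 1 array at a time gave 0 to 7 brighter and 0 to 5 dimmer subunit probe sets, 0 to 6 past adjustment, 0 to 8 of the other subunits and 0 to 3528 past adjustment on the whole array, the highest each time without CD8α− replicate 1. The lone CD8α− array is then assumed to vary like the CD8α+ pair.

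Of the 14 alternatives, 6 change only the test or the probe sets tested, so their 116 differences equal the reported ones by construction. In the other 191 comparisons of a subunit probe set with an alternative, 164 kept their sign, 6 of them passed adjustment, all without CD8α− replicate 1 (3 of Atp6v1b2 and 1 each of Atp6v0b, Atp6v1c1 and Atp6v1d), and 27 changed sign. On the deposited scale and with median centring 8 differences changed sign, where the median of all probe sets was 0.63 and 0.65: Atp6v0d1 (0.65 and 0.66), Atp6v1h 1415826_at (0.82 each), Atp6v1d 1416952_at (0.85 each), Atp6v0a1 1417632_at (0.36 each), Atp6v1c1 1419546_at (0.15 each), Atp6v1a 1422508_at (0.69 each), Atp6v0b 1437013_x_at (0.025 and 0.027) and Atp6v1e1 1449712_s_at (0.62 each). With trimmed mean scaling Atp6v1h 1415826_at (0.0070) and 1457639_at (-0.49), Atp6v1d 1416952_at (0.041) and Atp6v0a1 1425227_a_at (-0.22) changed sign. On leaving out an array, ranges that crossed 0 were those of Atp6v0a1 1417632_at (-0.18 to 0.15), Atp6v1h 1457639_at (-0.63 to 0.86), Atp6v1a 1450634_at (-0.080 to 0.36), Atp6v1e1 1420038_at (-0.48 to 0.76) and Atp6v1d 1438993_a_at (-0.34 to 0.96). The cause of these changes was not tested.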
